A study of Sus scrofa with 12 samples.

Results

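Kruppel-like factors (KLF) are transcription factors that share a run of zinc fingers at the carboxyl end, bind GC-rich and CACCC sequences, and either switch genes on or recruit corepressors. In muscle and its vessels several of them are known as fast responders to hormones, blood flow and the feeding state, and in fat cells they are known both as drivers and as brakes of differentiation. The 10 genes described here are KLF2, KLF3, KLF4, KLF5, KLF6, KLF9, KLF10, KLF13, KLF15 and KLF16, taken by symbol from 23271 genes of the deposited table. All 10 were found, and all 10 had a mean of at least 0.5 FPKM (counts scaled to gene length and library total), as did 11205 genes in all. The genes were chosen by their counts and FPKM in these same 12 libraries, because KLF16 had one of the smallest p-values between the breeds, so the breed comparison of the 10 genes is given below as a description and not as a test.

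The data are poly(A) RNA of longissimus dorsi, the long back muscle, from 6 libraries of Laiwu pigs, a Chinese breed known for fat within the muscle, and 6 libraries of Yorkshire pigs, a lean breed. The design text says that the breeds were of equal weight. Neither sex nor age is given in the sources used here, and the labels do not say that each library is a separate animal, so every p-value measures the spread between these samples, which may be technical. Total counts ran from 54961358 to 67285809 per library, and the genes of contractile muscle were at the top, where ACTA1, the actin of skeletal muscle, had a mean of 41624 FPKM over the Laiwu libraries and 43899 over the Yorkshire ones. Yorkshire 5 stood apart from the rest. The spread of its genes around their mean over libraries was 0.488 on the log2 scale against at least 0.210 and at most 0.2998 in the other libraries, and its deviations correlated with gene length at a Spearman's rho of -0.45 across genes, which are not independent replicates. The muscle holds several cell types, and in such bulk RNA a smaller number of cells and less RNA per cell cannot be told apart.

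On Sscrofa11.1, as the deposited table gives it, KLF2 lies on chromosome 2 at 61270199 to 61273138, KLF16 on chromosome 2 at 76680020 to 76690841, and KLF3 on chromosome 8 at 30024799 to 30060974. KLF4 lies on chromosome 1 at 248604820 to 248609035, KLF9 on chromosome 1 at 223720435 to 223748621, and KLF13 on chromosome 1 at 143493527 to 143540563. KLF5 lies on chromosome 11 at 45369810 to 45388314, KLF6 on chromosome 10 at 66488391 to 66497844, KLF10 on chromosome 4 at 34429941 to 34436004, and KLF15 on chromosome 7 at 53877818 to 53889144. All but KLF3 overlap no other listed gene. KLF3 overlaps 1 listed gene on the same strand, which had at most 2 counts in any library.

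KLF10, KLF9 and KLF15 were the most abundant of the 10 genes and held the first 3 places of the order in each of the 12 libraries. KLF10, an early gene of the TGF-beta response that is also tied to the clock, had a geometric mean of 27.4 FPKM, KLF9, a target of the glucocorticoid receptor, 19.1 FPKM, and KLF15, a regulator of amino acid and lipid use in muscle that also responds to glucocorticoids, 15.1 FPKM. The other genes were several-fold lower, with KLF13 at 5.57, KLF6 at 5.27, KLF4 at 4.31, KLF2 at 3.53, KLF3 at 3.46, KLF5 at 3.08 and KLF16 at 2.08 FPKM. The step from KLF15 down to KLF13 was 2.70-fold and held in 12 of 12 libraries (exact sign-flip permutation test on log2 FPKM within libraries, two-sided, p = 0.000488, the smallest that 12 libraries allow, and adjusted p = 0.0044 over 9 pairs of neighbours). The pairs of neighbours were taken from the order of these same values, which the p-values do not allow for.

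Of the other 8 pairs of neighbours in that order, 4 passed by a narrow margin and 4 did not pass. KLF9 over KLF15 (1.27-fold), KLF6 over KLF4 (1.22-fold), KLF4 over KLF2 (1.22-fold) and KLF5 over KLF16 (0.57 on the log2 scale) each had an adjusted exact permutation p of 0.0422, and each of these 4 calls was lost on leaving out most of the libraries singly. With 1 library left out, the number of passing neighbours ran from 1 to 4, and it was 4 only without Yorkshire 6. KLF10 and KLF9 could not be ordered beyond their spread, with KLF10 higher in 6 of 12 libraries (adjusted exact permutation p = 0.182). The same holds for KLF13 and KLF6 (0.691), KLF2 and KLF3 (0.906) and KLF3 and KLF5 (0.374, exact permutation as before). FPKM is per length of the gene model, so these ratios also carry any error in the models.

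**Figure D1:**
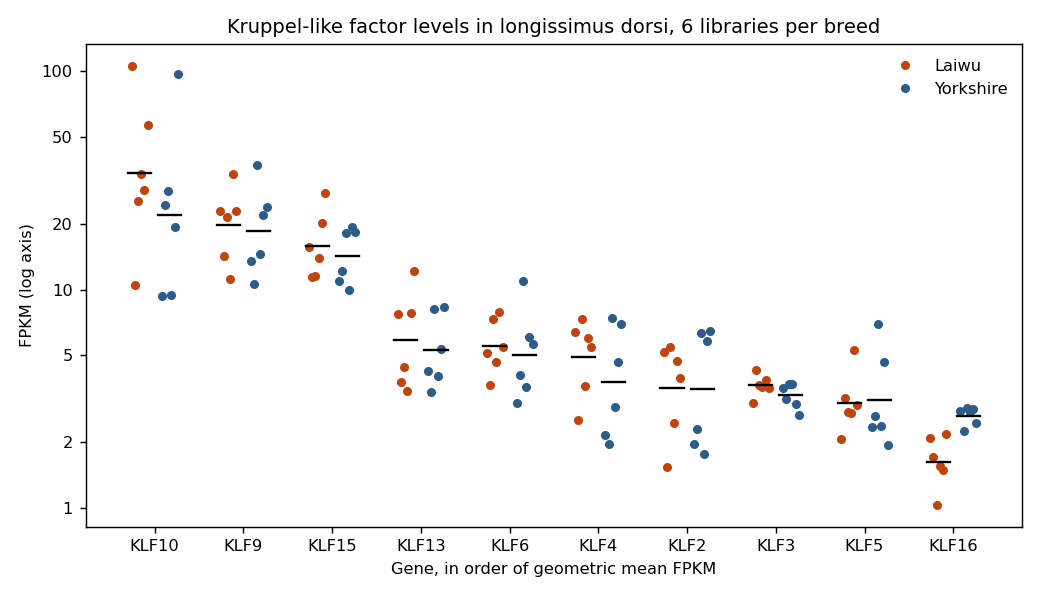
FPKM of each Kruppel-like factor on a log axis, with 1 point per library, Laiwu in red-brown and Yorkshire in blue, and a black bar at the geometric mean of each breed (n = 6). KLF10 spans 9.39 to 105.4 FPKM, KLF3 spans 2.68 to 4.30 FPKM, and only for KLF16 do the breeds not overlap.

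KLF16, known as a repressor that competes for GC-rich sites, was lower in Laiwu than in Yorkshire in every library. In Laiwu it had a lowest value of 1.04, a median of 1.64 and a highest value of 2.19 FPKM, and in Yorkshire 2.24, 2.76 and 2.87 FPKM. The highest Laiwu library, Laiwu 6, and the lowest Yorkshire library, Yorkshire 2, thus lay close together, and the groups did not overlap. The mean was 1.68 ± 0.426 for Laiwu against 2.66 ± 0.253 FPKM for Yorkshire (SD, n = 6 per breed), and the edgeR log2 fold change, Laiwu minus Yorkshire, was -0.67 ± 0.17 (SE), or 0.628 times the Yorkshire level. A small p-value between the breeds is what put KLF16 on the list. Here its p-value from edgeR was 0.00166, the fourth smallest of all genes tested, and adjusted over all genes it was 0.912. The fold change lay between -0.76 without Laiwu 1 and -0.56 without Laiwu 3, the library with the lowest level.

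The spread of KLF16 also differed in size between the breeds. On log2 CPM (counts scaled to the library total) its SD was 0.42 over the Laiwu libraries and 0.11 over the Yorkshire libraries, against medians over all tested genes of 0.25 and 0.30. Counts behind these values ran from 201 to 550 per library. A difference in spread was not tested.

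None of the other 9 genes separated the breeds. KLF2, a flow-responsive factor of endothelium, had a lowest, median and highest value of 1.54, 4.32 and 5.44 FPKM in Laiwu and of 1.78, 4.05 and 6.47 FPKM in Yorkshire, so that each breed had both low and high libraries. KLF4, its close relative in endothelium and a factor of pluripotent cells, ran over 2.54, 5.72 and 7.36 FPKM in Laiwu and 1.96, 3.79 and 7.42 FPKM in Yorkshire. KLF10 had 10.5, 31.2 and 105.4 FPKM in Laiwu and 9.39, 21.8 and 96.6 FPKM in Yorkshire, and its highest library was about 10-fold above its lowest in each breed (10.1-fold and 10.3-fold).

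The glucocorticoid-responsive pair also overlapped widely. KLF9 ran over 11.1, 22.2 and 33.7 FPKM in Laiwu and 10.6, 18.2 and 37.2 FPKM in Yorkshire, again as lowest, median and highest, and KLF15 over 11.4, 14.8 and 27.6 FPKM in Laiwu and 9.99, 15.1 and 19.3 FPKM in Yorkshire. KLF13, a factor first known from T cells and heart, was at 6.55 ± 3.35 and 5.59 ± 2.16 FPKM in Laiwu and Yorkshire (SD, n = 6 each). KLF6, a factor induced by injury, was at 5.69 ± 1.62 and 5.54 ± 2.87 FPKM.

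Of the factors with a known place in fat cell differentiation, KLF5, a driver of it, had means of 3.18 ± 1.11 (Laiwu) and 3.49 ± 1.95 FPKM (Yorkshire), with Laiwu 5 and Yorkshire 3 highest. KLF3, a repressor that works through CtBP corepressors and a brake of fat cell differentiation, was at 3.67 ± 0.419 and 3.30 ± 0.419 FPKM (SD, n = 6 each). Both overlapped between the breeds, with KLF3 at 3.01, 3.64 and 4.30 FPKM in Laiwu and 2.68, 3.36 and 3.71 FPKM in Yorkshire as lowest, median and highest.

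By edgeR's quasi-likelihood test, 0 of the 10 genes passed an adjusted p under 0.05, where the background share over 11205 genes was 0%. At an unadjusted p under 0.05 there was 1 of 10, KLF16, where the background was 4.44% (498 genes), of which 2.3% were lower and 2.14% higher in Laiwu. Without overlap between the breeds there was also 1 of 10, again KLF16, where the background was 0.178%, and 0.0982% for genes lower in Laiwu. Since the breed comparison helped to choose the genes, nothing is read from these counts. DESeq2 called 1 gene and limma on log2(FPKM + 1) called 0, none of them a Kruppel-like factor, with 569 and 397 genes at an unadjusted p under 0.05. The edgeR number of 498 was 281 without Laiwu 3 and 293 without Yorkshire 5.

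For 8 of the 10 genes the edgeR log2 fold change was smaller than its own SE. It was 0.45 ± 0.67 (SE) for KLF10, 0.25 ± 0.35 for KLF4, 0.21 ± 0.33 for KLF13, 0.15 ± 0.24 for KLF15, 0.05 ± 0.30 for KLF9 and 0.03 ± 0.27 for KLF6. KLF2 and KLF5 had -0.11 ± 0.40 and -0.14 ± 0.30. KLF3, the steadiest of the genes, had 0.14 ± 0.10, from 0.08 without Laiwu 2 to 0.17 without Laiwu 1. In all, 7 of 10 fold changes lay above 0, with a median of 0.09, against 49.7% above 0 and a median of -0.001 over all genes tested.

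KLF10 shows how far 1 library could move these values. Its log2 fold change was 1.27 without Yorkshire 6, the library at 96.6 FPKM, and -0.08 without Laiwu 1, the library at 105.4 FPKM. Over the 22 alternatives tried, KLF3, KLF4 and KLF16 kept 1 sign, and each of the other 7 genes took the other sign in at least 1. KLF2 did so in 6 of them, KLF6 in 5 and KLF9 in 4.

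**Figure D2:**
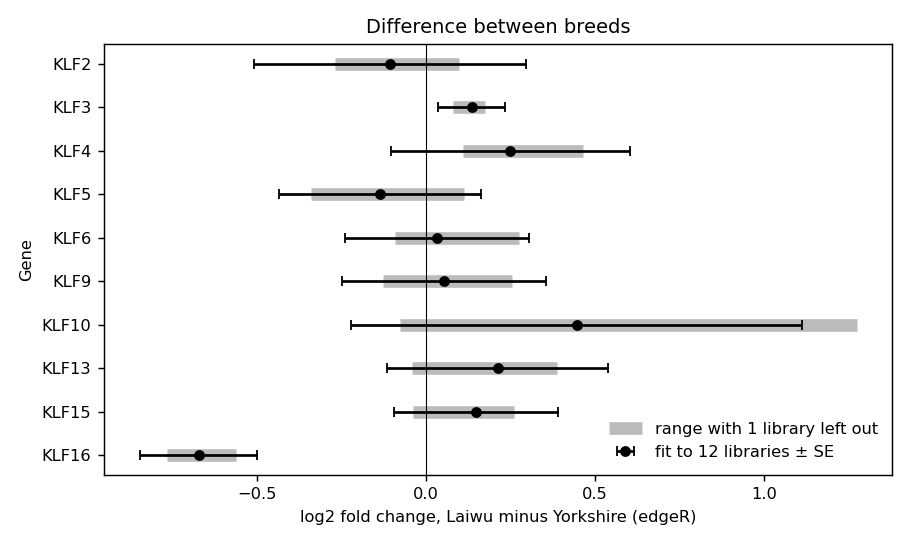
edgeR log2 fold change of each gene, Laiwu minus Yorkshire, as a point with its SE (12 libraries), over a grey bar for the range when 1 library is left out. KLF16 sits at -0.67 with a range of -0.76 to -0.56, and the grey bar of KLF10 reaches from -0.08 to 1.27.

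Except for KLF16 and KLF3, the Kruppel-like factors varied widely between libraries of the same breed. The SD of log2 CPM within breeds was 1.21 for KLF10, 0.81 for KLF2, 0.70 for KLF4, 0.62 for KLF13, 0.59 for KLF9, 0.56 for KLF5, 0.52 for KLF6 and 0.47 for KLF15. These 8 genes were each more variable than 80% of the genes tested, whose median SD was 0.285. KLF10 was at or above 98.4% of them. KLF16 was close to the middle, at 0.305, and KLF3 was among the steadiest genes of the muscle, at 0.138, with only 5.61% of genes at or below it.

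The same libraries were low for several factors. KLF2 was lowest in Laiwu 2, Yorkshire 4, Yorkshire 1, Yorkshire 2 and Laiwu 4, and those 5 libraries were also the lowest 5 for KLF4, KLF6, KLF9 and KLF13. The gap above them was wide for KLF2, where the fifth library had 2.46 FPKM and the next one 3.95 FPKM, and for KLF9, at 14.5 and 21.5 FPKM. It was narrow for KLF6, at 4.65 and 5.13 FPKM, and for KLF13, at 4.24 and 4.42 FPKM. KLF10 and KLF15 had 4 of the same libraries among their lowest 5, KLF5 had 3, and KLF3 and KLF16 had 2.

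**Figure D3:**
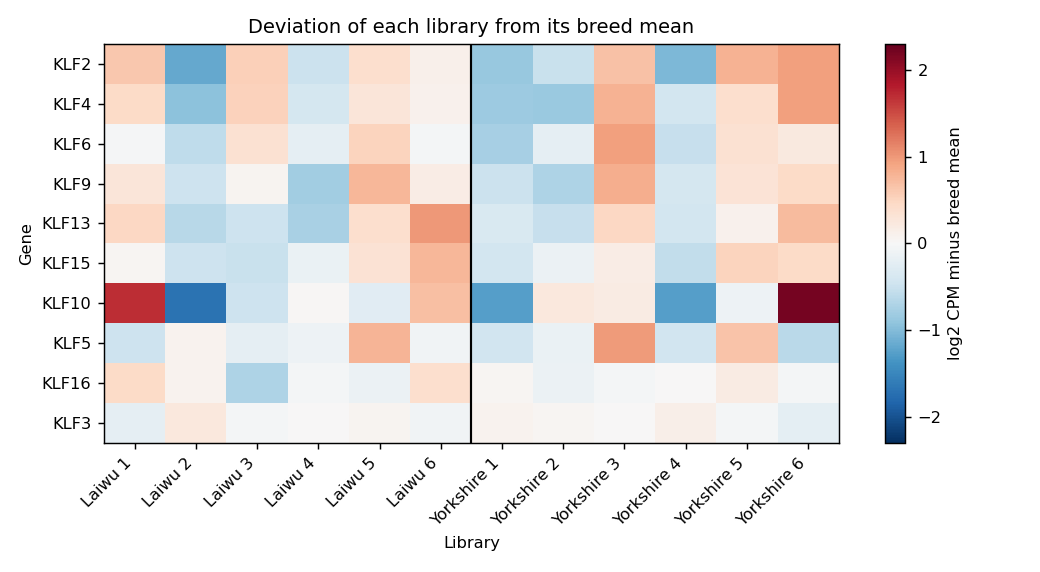
log2 CPM of each gene (rows) in each library (columns) minus the mean of its breed, red above and blue below, with a line between the breeds. Laiwu 2, Laiwu 4, Yorkshire 1, Yorkshire 2 and Yorkshire 4 are blue for KLF2, KLF4, KLF6, KLF9 and KLF13, and KLF10 has the deepest colours, up to 2.20 in Yorkshire 6.

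To ask which factors varied together, each pair was correlated over the 12 libraries after the breed means were removed. The p-value that put KLF16 on the list also depends on its spread within breeds, so for KLF16 this variation is not independent of the choice. Of 45 pairs, 15 passed (permutation test with 100000 shuffles within breeds, two-sided, adjusted p under 0.05), 12 with r above 0 and 3 below. How often pairs of other genes of like spread pass was not tested, so this count is not read as particular to the family. KLF2, KLF4, KLF6 and KLF9 passed with each other in all of their combinations, and the 3 negative pairs all held KLF3. KLF16 passed with none of its 9 partners (r from -0.24 to 0.47, smallest adjusted permutation p = 0.252), and neither did KLF5 (r from -0.19 to 0.67, smallest adjusted permutation p = 0.0867).

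KLF3 and KLF10 ran in opposite directions. Pearson's r was -0.92 (permutation p = 0.00037, adjusted 0.00833) and Spearman's rho -0.83 (permutation p = 0.00277, adjusted 0.0336). It was -0.84 without Laiwu 2 and Yorkshire 6, the 2 libraries farthest from the median of KLF3, -0.93 within Laiwu and -0.92 within Yorkshire. KLF3 was highest, at 4.30 FPKM, in Laiwu 2, where KLF10 was at 10.5 FPKM, and lowest, at 2.68 FPKM, in Yorkshire 6, where KLF10 was at 96.6 FPKM. KLF3 also ran against KLF2 (r = -0.81, adjusted permutation p = 0.0096) and KLF4 (r = -0.76, adjusted permutation p = 0.0161). Neither of these 2 pairs passed without Laiwu 2, and KLF3 with KLF4 did not pass without Yorkshire 6 either.

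KLF2 and KLF4 had the highest correlation of any pair, with r of 0.94 (permutation p = 0.00034, adjusted 0.00833) and rho of 0.92 (permutation p = 0.00058, adjusted 0.0164). It was 0.96 without Laiwu 2 and Yorkshire 4, 0.997 within Laiwu and 0.92 within Yorkshire. KLF13 and KLF15 followed each other as well, with r of 0.85 (permutation p = 0.00214, adjusted 0.0161) and rho of 0.73 (permutation p = 0.0126, adjusted 0.0569), and r of 0.74 without Laiwu 6 and Yorkshire 6. KLF6 and KLF9 had r of 0.84 (permutation p = 0.0022, adjusted 0.0161) and rho of 0.81 (permutation p = 0.00522, adjusted 0.0336), and r of 0.79 without Yorkshire 1 and Yorkshire 3. The pair did not pass without Yorkshire 3, where both genes had their highest level.

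**Figure D4:**
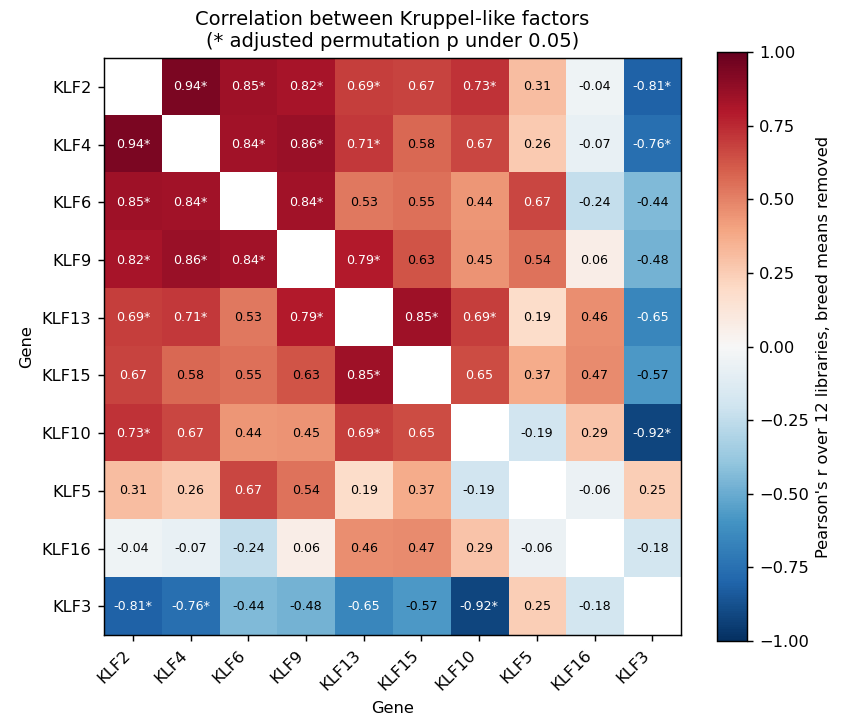
Pearson's r between the 10 genes over 12 libraries with breed means removed, red for positive and blue for negative, with a star where the adjusted permutation p is under 0.05. The block of KLF2, KLF4, KLF6 and KLF9 ranges from 0.82 to 0.94, and KLF3 has -0.92 with KLF10.

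The pairs differed in how they ran outside the 5 low libraries. In the 7 libraries above the gap in KLF2, 11 of the 15 passing pairs kept the sign of r, 4 had the other sign, and 5 had an absolute r above 0.6. Those 5 were KLF3 with KLF10 (r = -0.89), KLF13 with KLF15 (0.82), KLF6 with KLF9 (0.71), KLF2 with KLF4 (0.63) and KLF10 with KLF13 (0.61). In the same 7 libraries, the 4 pairs with the other sign were KLF2 with KLF13 (r = -0.50), KLF2 with KLF9 (-0.21), KLF4 with KLF13 (-0.18) and KLF2 with KLF6 (-0.17). These 7 libraries were picked after the levels of KLF2 were seen, and a narrower range of KLF2 itself lowers r, so these values are a description with no test. With 1 library left out, 5 pairs passed without Laiwu 2 and 17 without Laiwu 3, the extremes, and the number was 8 by rank correlation.

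**Figure D5:**
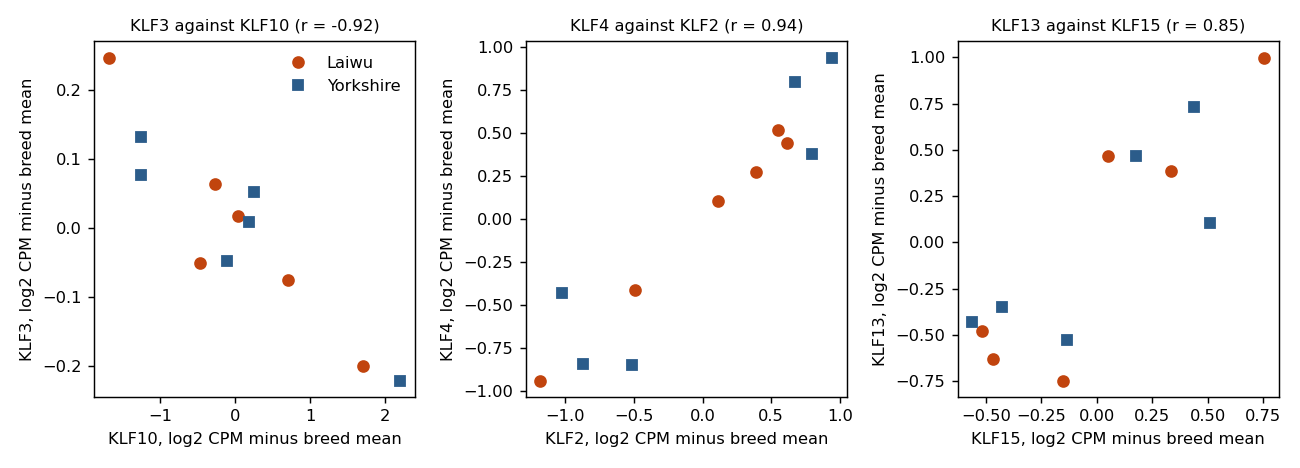
Deviations from the breed mean (log2 CPM) for 3 pairs of genes, with 1 point per library, Laiwu as red-brown circles and Yorkshire as blue squares. KLF3 falls as KLF10 rises (r = -0.92) over a much narrower range, and KLF4 with KLF2 (r = 0.94) and KLF13 with KLF15 (r = 0.85) rise together.

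The factors were also set against 14 gene lists of known pathways and cell types, as the mean deviation of each list's genes, and 7 of 140 relations passed. KLF6 followed the glucocorticoid response list (16 genes, among them TRIM63, PDK4, DDIT4 and PER1) with r of 0.92 (permutation p = 3e-05, adjusted 0.0042) and rho of 0.92 (permutation p = 0.0002, adjusted 0.0196), and r was 0.95 without Yorkshire 1 and Yorkshire 3. KLF9 followed it with r of 0.92 (adjusted permutation p = 0.0266), KLF2 with 0.90 (adjusted 0.0328 by the same permutation test) and KLF4 with 0.85 (adjusted permutation p = 0.0478). With each library left out in turn, KLF6 passed in 12 of 12 cases, KLF9 in 9, KLF2 in 2 and KLF4 in 0. Rank correlation kept the first of these 4 past the threshold, and in the 7 libraries above the gap r was 0.94 for KLF6, 0.73 for KLF9, -0.30 for KLF2 and -0.14 for KLF4. KLF15, itself a glucocorticoid target, had r of 0.64 with the list and did not pass (adjusted permutation p = 0.222). Deviations were averaged without scaling, so genes of a list that vary more weigh more. PDK4 was also the gene most like KLF2 (r = 0.96), and the list without PDK4 was not tested.

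KLF6 also followed the TGF-beta response list (14 genes; r = 0.90, adjusted permutation p = 0.0112, rho = 0.90, adjusted 0.0196) and the immediate early genes (21 genes; r = 0.87, adjusted permutation p = 0.0266). The second of these was lost by rank (rho = 0.76, adjusted permutation p = 0.201). KLF4 followed the TGF-beta list with r of 0.84 (adjusted permutation p = 0.0474), which was also lost by rank (rho = 0.83, adjusted permutation p = 0.118). With each library left out in turn, these 3 relations passed in 9, 4 and 2 of 12 cases. KLF10, also known as TGF-beta inducible early gene, had r of 0.53 with that list and did not pass (adjusted permutation p = 0.298). The number of passing relations ran from 1 to 7 with 1 library left out, and it was 1 without Laiwu 2, without Laiwu 5 and without Yorkshire 3. The mean deviations of the glucocorticoid, TGF-beta and immediate early lists were all low in Laiwu 2 (-0.61, -0.26 and -0.59). They were all high in Yorkshire 3 (0.56, 0.32 and 0.74) and differed in Laiwu 4 (-0.46, 0.01 and 0.20). The relations of KLF6 with these lists are thus not independent of each other.

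None of the relations with a cell type list passed. For the endothelial markers, r over the 10 factors ran from -0.52 to 0.33, and it was -0.38 for KLF2 and -0.19 for KLF4, factors known from endothelium. The summed level of 10 endothelial markers ran from 39.3 to 63.3 FPKM in Laiwu and from 38.6 to 68.7 FPKM in Yorkshire. For the adipocyte markers r ran from -0.67 for KLF3 to 0.67 for KLF2 (smallest adjusted permutation p = 0.162). Their summed level over 10 genes ran from 121.0 to 347.3 FPKM in Laiwu and from 117.3 to 190.4 FPKM in Yorkshire. Of 9 adipocyte markers tested, 9 had a fold change above 0 and 0 passed edgeR's test, with a median log2 fold change of 0.98. ADIPOQ, the fat cell hormone adiponectin, was at 37.1 ± 25.7 (Laiwu) and 11.5 ± 7.27 FPKM (Yorkshire; SD, n = 6 per breed). Markers with a higher mean over all libraries differed less. In Laiwu and Yorkshire, PLIN4 was at 72.5 ± 16.5 and 57.3 ± 15.0 FPKM, and PNPLA2 at 34.5 ± 10.6 and 33.8 ± 10.1 FPKM. LPL was at 36.2 ± 13.6 and 21.8 ± 5.76 FPKM. The 10 markers of fibroblasts and fibro-adipogenic progenitors also all lay above 0, with a median of 0.27 and 0 passing, where 49.7% of all genes lay above 0.

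These markers thus lay higher in Laiwu where KLF16 lay lower, and their part in the breed difference of KLF16 was not tested. Within breeds, r of KLF16 was -0.22 with the adipocyte list, -0.24 with the fibroblast list, -0.37 with macrophage, -0.30 with smooth muscle and pericyte, -0.09 with endothelial and 0.18 with muscle fibre markers, none of which passed (smallest adjusted permutation p = 0.537). Without Laiwu 1 and Laiwu 3, the libraries farthest from the median of KLF16, r was 0.26, 0.02, -0.33, 0.31, 0.45 and 0.45 in the same order. Breed means were not taken again without them, so a difference between breeds can enter these r values. The signs of most of these values thus hang on those libraries. The spread of KLF16 within breeds also enters the p-value that put it on the list, so its values here are not independent of the choice. They do not test a part of these cell types in the breed difference.

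In the comparison of breeds, 0 members of any of these pathway lists passed in either direction (edgeR, adjusted p under 0.05). Of 14 measured genes that KLF15 is known to regulate in muscle metabolism, 9 had a fold change above 0 and 5 below, with a median log2 fold change of 0.09. The 2 most abundant of them were ACADM, an enzyme of fatty acid oxidation, with 77.2 ± 14.5 (Laiwu) and 65.2 ± 11.7 FPKM (Yorkshire), and SLC2A4. SLC2A4, the insulin-responsive glucose transporter, had means of 45.3 ± 11.04 (Laiwu) and 45.95 ± 6.33 FPKM (Yorkshire; SD, n = 6 per breed). Of 9 endothelial targets of KLF2 and KLF4, 7 lay above 0, and of 13 regulators of fat cell differentiation, 5. The most abundant regulators were RXRA, a nuclear receptor, at 42.2 ± 4.79 and 43.0 ± 3.63 FPKM, and CTBP1, a corepressor gene that KLF3 works through, at 19.9 ± 1.74 and 20.04 ± 1.52 FPKM. PPARG, the master regulator of fat cells, named after its values were seen, was at 2.06 ± 1.22 and 0.851 ± 0.245 FPKM, and its log2 fold change of 1.23 ± 0.35 (SE) did not pass (edgeR, adjusted p = 0.912). Of 21 immediate early genes 9 lay above 0, of 16 glucocorticoid response genes 8, of 14 TGF-beta genes 8 and of 17 clock genes 11. For all of these lists the share above 0 over all genes tested was 49.7%.

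The genes whose pattern over the 12 libraries was most like each factor were named by Pearson's r of log2 CPM with breed means removed, among 4647 genes of at least 5 FPKM, as a description. The 3 nearest to each had r from 0.82 to 0.98. PDK4, the fasting-induced inhibitor of pyruvate dehydrogenase, was nearest to KLF2 (r = 0.96), GADD45A, a growth arrest gene, to KLF5 (0.98), and DYRK1A, a protein kinase, to KLF6 (0.97). CRY2, a repressor of the clock, was nearest to KLF10 (0.94), and PER1, another, was second for KLF15 (0.92). With the list of 17 clock genes as a whole, r was only 0.08 for KLF10 (adjusted permutation p = 0.945). For KLF15 it was -0.01 (adjusted permutation p = 0.999). ARRDC3 was nearest to KLF9 (0.96), PEPD to KLF4 (0.96) and TOB2 to KLF13 (0.93). For KLF3 the next after RNF185 (0.95) were the heat shock genes HSPA6 (0.94) and HSP70.2 (0.93). Both are of the HSP70 family, and whether reads were shared between them was not tested. KLF16 had the loosest neighbours, with YIF1B at 0.85 and RSL1D1 at 0.82 after a gene without a symbol at 0.91.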

How the data were processed

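Per the labels' protocols, poly(A) RNA was made into libraries that mark strand with dUTP. The strand setting of the counting is not stated in the labels. Per the design text, reads were filtered with FastQC and aligned with HISAT2 2.2.1 to Sscrofa11.1. Other tools in the submitters' processing notes, listed there with no step, are StringTie 1.3.4d, cutadapt 1.9, edgeR and DESeq2. The deposited table holds whole-number counts and FPKM values per gene and library, made by the authors. Symbols for 130 unnamed IDs came from a gene name table.

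The members and gene lists were chosen with earlier results of these data known. Breeds were compared with edgeR 4.0.16 (TMM, robust quasi-likelihood test, Benjamini-Hochberg over the 11205 genes whose mean reached 0.5 FPKM), a fit tested on simulated counts, with limma 3.58.1 and DESeq2 1.42.0 as alternatives in R 4.3.3. Correlations used TMM log2 CPM (prior count 2) minus the breed mean and 100000 shuffles within breeds, with list scores over at least 3 tested genes, members left out, so that 14 of 15 lists were used (lymphocyte markers had 1 tested gene). Where the 2 libraries farthest from the median were left out, the breed means of all 12 libraries were kept. Adjusted p-values are over 45 pairs, 140 relations and 9 neighbours. Genes named are the 10 members, for each the 3 most alike, and from a list up to 4 of its genes of highest FPKM; ADIPOQ is among these, and PPARG was added after its values were seen. Python 3.11.15, scipy and matplotlib 3.10.9 were used for the rest. By counting error alone, a gene at 0 could still have 3 counts, which is 0.0446 to 0.0546 CPM.

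The titles number the libraries 1 to 6 in each breed. Over all tested genes, deviations of same-numbered libraries correlated above 0.1 in only 1 of 6 pairs, so the numbers were not taken to pair them. With a replicate block, the SE of the log2 fold change fell for KLF2 (0.40 to 0.29), KLF6 (0.27 to 0.17) and KLF9 (0.30 to 0.20). It also fell for KLF4, KLF5, KLF13 and KLF15, and rose for KLF3, KLF10 and KLF16. Whether these genes share a pattern by library number was not tested, and the shuffles within breeds do not allow for one.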

Additional observations from a re-analysis of the deposited data

Results flagged for a closer look

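In each breed the highest and the lowest of the 6 libraries were compared with the range for all 10 genes. Of these 20 groups, 2 had a library far from the others, and chance gives about 1 in 20 for independent, normally distributed values. The values compared were FPKM without a log, where a high value stands out more than on a log scale. Log values were not tested, and the genes vary together, so that rate is only a rough guide. KLF10 in Yorkshire 6 was at 96.6 FPKM, where the next Yorkshire library was at 28.1 FPKM, a gap of 0.786 of the range. KLF5 in Laiwu 5 was at 5.31 FPKM, where the next Laiwu library was at 3.19 FPKM, a gap of 0.655 of the range. The critical value for 6 libraries is 0.625. Without Laiwu 5 the log2 fold change of KLF5 was -0.34 in place of -0.14, and without Yorkshire 6 that of KLF10 was 1.27 in place of 0.45.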

How the results depend on the processing

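The number of genes called between the breeds was 0 under 21 of 22 alternatives, with a replicate block and without each library included, and 1 by DESeq2. Of 9 neighbours in level, 5 passed on all libraries, 0 in Laiwu or Yorkshire alone, where 6 libraries allow no p under 0.0312, and 1 to 4 without 1 library. Of 45 pairs of factors, 15 passed, and 8 by rank correlation, 9 on log2(FPKM + 1), 0 in Laiwu or Yorkshire alone, 0 with the replicate block (6 differences between same-numbered libraries) and 5 to 17 without 1 library. Of 140 relations with lists, 7 passed, and 2 by rank correlation, 0 in Laiwu or Yorkshire alone, 0 with the replicate block and 1 to 7 without 1 library. Fewer libraries enter the fits on 1 breed and the fit with the block. Exact shuffles of 6 values give no p-value small enough for a lone pair or relation to pass after adjustment. Those counts of 0 for pairs and relations therefore say little. The log2 ratio of KLF13 to KLF6 changed from 0.0819 to -0.0153 without Laiwu 6, and was at most 0.156, without Laiwu 3. That of KLF2 to KLF3 changed from 0.0302 to -0.0419 in Laiwu alone, and ran from -0.0829 without Yorkshire 6 to 0.168 without Laiwu 2, below 0 also without Laiwu 1, Laiwu 3, Yorkshire 3 and Yorkshire 5. Library weights gave log2 fold changes of 0.30 for KLF2, 0.18 for KLF5 and 0.33 for KLF6, and log2(FPKM + 1) gave -0.46 for KLF16. The cause of these changes was not tested. KLF16 had few counts, from 201 to 550 per library, which limits its precision. Its lowest count was the lowest of the 10 genes. In some libraries another gene had fewer, as KLF2 with 301 in Yorkshire 1, where KLF16 had 550. The part of counting error in the Yorkshire SD of KLF16, 0.11 on log2 CPM, was not tested.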

Other observations

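KLF11, the closest relative of KLF10 and also an early gene of the TGF-beta response, is outside the 10 genes and was chosen here after its values were seen. It had a lowest, median and highest value of 0.703, 3.68 and 6.76 FPKM in Laiwu and 0.513, 1.903 and 5.13 FPKM in Yorkshire. Its SD of log2 CPM within breeds was 1.29, at or above 98.7% of the genes tested. The 3 libraries with the lowest KLF11, namely Yorkshire 1, Yorkshire 4 and Laiwu 2, were also the 3 lowest in KLF10. Its log2 fold change was 0.72 ± 0.63 (SE) by edgeR.

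The related factors SP1, SP2 and SP3, which bind the same GC-rich sites, were at 6.31, 7.24 and 10.5 FPKM over the 12 libraries. Of the 6 tested genes of the KLF and SP family outside the 10, all had a fitted fold change above 0, where 49.7% of all genes did. Of these genes 0 passed edgeR's test, with a median log2 fold change of 0.09 against -0.001 over all genes. Some lay close to 0, as SP4 at 0.01 ± 0.37 and SP2 at 0.03 ± 0.11 (SE), so no shared direction is read from them. SP1 was lowest, at 1.83 FPKM, in Yorkshire 5, the library whose deviations followed gene length. KLF8 and KLF12 were at 0.4997 and 0.440 FPKM, below the minimum for testing, and KLF14 had counts in 1 of 12 libraries.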
